A study of Mus musculus with 88 samples.

Results

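Mtf2 null mouse embryonic stem cells kept for 48 h in an endoderm-inducing medium were compared with the same cells before differentiation. The members are the 2 Mtf2 null libraries labeled 48 h in the endoderm series and the 2 undifferentiated Mtf2 null libraries of that series, 4 of the 88 samples. They were picked by their labels, but the comparison itself was chosen with earlier results of these data known. The study sequenced the RNA of wild-type (WT), Mtf2 null and Jarid2 null cells driven toward endoderm or mesoderm, with 2 libraries of each line before differentiation and at 5, 24 and 48 h. The Mtf2 null cells carried a gene trap in both copies of Mtf2 (Mtf2GT/GT) and the WT cells were the E14 line, so genotype and cell line cannot be told apart, and each genotype is a single line. Undifferentiated cells grew in serum with LIF. Endoderm medium held Activin A, CHIR99021 (an inhibitor of GSK3 that turns on Wnt signaling) and FGF2 for the first 24 h, and then Activin A with DM3189, an inhibitor of BMP receptors. The methods speak of another 48 h in this later medium and the labels of 48 h, so the total time in medium is not settled and the labels are followed here. The mesoderm series, used for 1 comparison, had Activin A, BMP4, CHIR99021 and FGF2, and then BMP4 with A-83-01, an inhibitor of Activin and Nodal receptors. The duplicates were described as technical, so p-values measure the spread between these libraries, which may be technical.

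MTF2 is an accessory subunit of Polycomb repressive complex 2 (PRC2), the enzyme that methylates histone H3 to keep developmental genes silent. It helps to bring the complex to CpG-rich promoters, and JARID2 belongs to another form of the same complex. Activin acts through the receptors for Nodal, and with Wnt signals it leads epiblast-like cells through a primitive streak state, marked by the T-box factors T and EOMES, into definitive endoderm. Definitive endoderm, the source of gut, liver and pancreas, expresses SOX17, FOXA2, GATA4, GATA6, CXCR4 and the secreted inhibitor CER1. The extraembryonic endoderm of the yolk sac arises earlier and by another route. It shares SOX17, GATA4, GATA6 and HNF4A, and adds the protein-uptake receptor of cubilin and amnionless, the collagen IV and laminin of its basement membrane, and serum carriers such as transthyretin (TTR) and alpha-fetoprotein (AFP).

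Library totals were 13050511 and 13737927 estimated counts before differentiation and 14011148 and 15037271 at 48 h, within the range of 9889871 to 16373027 over the 24 endoderm libraries. Levels are given as CPM (counts scaled by TMM to a common library size), replicate 1 before replicate 2. Mitochondrial transcripts took 2.46% and 1.82% of the counts before differentiation and 0.893% and 1.28% at 48 h, a difference whose part in the results was not tested. Among genes of at least 5 CPM, duplicates differed by a median of 0.131 on the log2 scale before differentiation and 0.141 at 48 h. A gene is called where the adjusted p of edgeR's quasi-likelihood test (Benjamini-Hochberg over all genes tested) was under 0.001 and the log2 fold change was past 1 in size. "Rose" and "fell" are used for called genes alone. In bulk RNA, fewer cells of a type and less RNA per cell cannot be told apart.

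Endoderm markers matched the label in part. The summed level of 7 marker genes of definitive endoderm (Sox17, Foxa2, Cxcr4, Gata4, Gata6, Cer1 and Hhex) was 58.0 and 73.4 CPM before differentiation and 247.0 and 205.9 CPM at 48 h. Most of this sum came from Sox17, Gata4 and Gata6, which extraembryonic endoderm shares, so it does not single out definitive endoderm. Cer1 was below 1 CPM at both times, and Cxcr4, the receptor used to sort definitive endoderm, was at 0.836 and 1.46 CPM before and 2.47 and 2.02 CPM at 48 h, which was not called. Of 5 extraembryonic endoderm genes (Sox7, Afp, Ttr, Apoa1 and Thbd), the sum was 17.7 and 14.9 CPM before differentiation and 48.1 and 48.3 CPM at 48 h. Sox7 alone made up most of it at both times. The other 4 were below 1 CPM before differentiation, and Afp and Apoa1 still were at 48 h. The 4 defining markers of mesoderm summed to 1.59 and 1.63 CPM before differentiation and 3.22 and 2.37 CPM at 48 h. Those of neural ectoderm summed to 5.19 and 4.29 CPM and then 3.74 and 4.26 CPM. Those of trophoblast summed to 9.20 and 7.63 CPM and then 12.3 and 11.0 CPM. The 5 markers of undifferentiated cells still summed to 800.8 and 788.1 CPM, against 2449 and 2295 CPM before. The 48 h libraries thus held endoderm transcripts beside a large remainder of pluripotency transcripts, and they are referred to by their label, without a cell type name.

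Of 19261 genes tested, 1149 rose and 571 fell between the undifferentiated state and 48 h, which is 8.93% of the genes tested, 5.97% in the upward and 2.96% in the downward direction. Of these calls 66.8% were upward, against 55.3% (903 up and 730 down) under upper quartile scaling, which moved the median change of all genes from 0.013 to -0.117. Without the first undifferentiated library the counts were 746 and 398. Counts over gene lists, here and below, stand beside the shares of all genes tested, and no list was tested as a set. The lists were chosen with earlier results of these data known. The targeted gene was checked before the rest. Mtf2 was at 34.8 and 31.1 CPM in undifferentiated Mtf2 null cells and at 31.1 and 35.0 CPM at 48 h, against 448 and 509 CPM in undifferentiated WT cells and 218 and 237.5 CPM in WT cells at 48 h. All 4 Mtf2 null libraries lay below every WT library, and the log2 fold change within the null line was 0.01. Some Mtf2 transcript is thus still counted from the trapped gene (chromosome 5, 108065674 to 108109004, plus strand, GRCm38). Among 13 PRC2 subunit genes, 3 fell, none rose, and the median log2 fold change was -0.35, beside 0.013 over all genes tested. Jarid2 fell from 939 and 949 CPM to 358 and 392 CPM (log2 fold change -1.33 ± 0.11 SE, adjusted p = 1.04e-08 by edgeR). Eed, the subunit that reads the mark PRC2 writes, fell from 232 and 213 CPM to 85.9 and 96.3 CPM (-1.29). Epop, which joins PRC2 to elongation factors, fell from 296 and 327 CPM to 163 and 134.7 CPM (-1.06), and this call was lost without the second 48 h library (-0.93) or the second undifferentiated library (-0.99).

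The transcription factors shared by definitive and extraembryonic endoderm rose together. Of the 18 tested members of a 20-gene definitive endoderm list, 11 rose and none fell, with a median log2 fold change of 1.71. Hnf4a, a nuclear receptor that sets the hepatic and visceral endoderm programs, was at 0.836 and 1.29 CPM before differentiation and 19.4 and 15.1 CPM at 48 h, an increase of 4.01 ± 0.37 on the log2 scale (SE, adjusted p = 2.86e-08 by edgeR). Both 48 h libraries were far above both undifferentiated libraries. The forkhead factor Foxa2 rose from 2.26 and 3.43 CPM to 19.8 and 15.6 CPM (2.635 ± 0.40, adjusted p = 2.48e-05 by edgeR), and Sox17 rose from 6.36 and 10.7 CPM to 34.3 and 30.65 CPM (1.93 ± 0.31, adjusted p = 4.34e-05). Neither gene's groups overlapped, but both calls leaned on single libraries. Without the first undifferentiated library the adjusted p of Foxa2 was 0.00203 (2.36) and that of Sox17 was 0.00328 (1.597), and without the first 48 h library that of Sox17 was 0.00122 (1.85). Gata4 rose from 27.4 and 35.2 CPM to 112 and 92.15 CPM (1.70), and Gata6 from 17.1 and 18.4 CPM to 64.3 and 53.3 CPM (1.72). Hhex, a homeobox gene of the anterior endoderm, rose from 3.93 and 4.03 CPM to 13.8 and 12.3 CPM (1.71). The simple-epithelium keratins Krt18 (17.9 and 26.3 CPM to 181.5 and 127.8 CPM, 2.81) and Krt8 (32.8 and 39.7 CPM to 190.1 and 144.4 CPM, 2.21) rose as well, as did Krt19 (1.63) and the tight-junction gene Cldn6 (1.97). The 7 tested members that were not called were Cxcr4, Epcam, Foxa3, Kit, Ovol2, Prdm1 and Trh, at -0.97 to 0.96, and Cer1 and Foxa1 were too low to be tested. Sox17 lies on chromosome 1 (4490931 to 4497354, minus strand), Foxa2 (148042877 to 148046969, minus strand) and Hnf4a (163506808 to 163572910, plus strand) on chromosome 2.

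The promoters of 4 genes are shown, 3 of the endoderm genes just described and Inhbb, which fell furthest on the signaling lists. MTF2 binds CpG-rich DNA, but both groups compared are Mtf2 null, and a part of CpG content in these changes was not tested. Each runs from 250 bases before to 50 bases after the outermost transcription start that RefSeq gives on GRCm38.p6, with CpG dinucleotides in capitals.
Hnf4a (chr2:163506607-163506906, plus strand): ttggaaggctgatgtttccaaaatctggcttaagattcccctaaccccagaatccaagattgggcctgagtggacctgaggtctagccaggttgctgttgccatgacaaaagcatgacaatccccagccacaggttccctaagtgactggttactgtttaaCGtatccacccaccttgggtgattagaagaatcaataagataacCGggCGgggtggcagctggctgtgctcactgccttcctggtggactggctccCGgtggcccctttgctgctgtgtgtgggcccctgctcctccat
Krt18 (chr15:102027966-102028265, plus strand): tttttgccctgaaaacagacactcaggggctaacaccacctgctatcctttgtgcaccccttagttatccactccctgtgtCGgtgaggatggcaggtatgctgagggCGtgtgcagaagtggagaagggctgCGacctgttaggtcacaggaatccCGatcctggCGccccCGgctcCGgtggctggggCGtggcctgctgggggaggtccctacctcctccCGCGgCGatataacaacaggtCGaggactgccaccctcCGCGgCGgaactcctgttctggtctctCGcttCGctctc
Foxa2 (chr2:148046920-148047219, minus strand): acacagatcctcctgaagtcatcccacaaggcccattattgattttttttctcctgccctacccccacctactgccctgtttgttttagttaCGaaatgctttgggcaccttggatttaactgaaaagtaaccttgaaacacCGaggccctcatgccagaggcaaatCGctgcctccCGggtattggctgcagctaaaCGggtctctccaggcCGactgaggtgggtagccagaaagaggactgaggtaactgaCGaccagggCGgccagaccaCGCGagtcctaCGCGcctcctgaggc
Inhbb (chr1:119422199-119422498, minus strand): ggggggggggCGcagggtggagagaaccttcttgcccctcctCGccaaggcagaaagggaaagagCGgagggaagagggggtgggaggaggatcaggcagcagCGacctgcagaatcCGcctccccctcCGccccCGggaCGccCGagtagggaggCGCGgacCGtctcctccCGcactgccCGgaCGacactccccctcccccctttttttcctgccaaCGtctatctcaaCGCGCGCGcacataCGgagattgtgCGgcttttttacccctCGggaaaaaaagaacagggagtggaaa
The windows of Hnf4a, Foxa2, Krt18 and Inhbb held 4, 12, 17 and 23 CpG dinucleotides. RefSeq lists 2 starts for Hnf4a and 3 for Foxa2. On both strands, the GATA motif AGATAA was found in the Hnf4a window, at base 199 from its 5′ end on the plus strand, and in 8.23% of all promoters of tested genes. The forkhead letters TGTTTAC (3.27% of all promoters), the SOX letters ACAATGG (2.69%), the TCF and LEF letters CTTTGAA (4.47%), the T-box letters GGTGTGA (4.24%) and the FOXH1 letters AATCCAC (2.41%) were in none of the 4 windows. Among promoters of genes that rose, 7.86% held the GATA letters, and among those of genes that fell, 7.24%. In the same order the shares were 4.97% and 8.08% for TCF and LEF, 3.47% and 5.85% for forkhead, and 2.89% and 4.46% for SOX. They were 4.62% and 3.34% for T-box, and 2.66% and 3.06% for FOXH1. These shares take all promoters of a gene, while each window shown is a single start, so the 2 are not alike. They are a description, with no test.

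**Figure D1:**
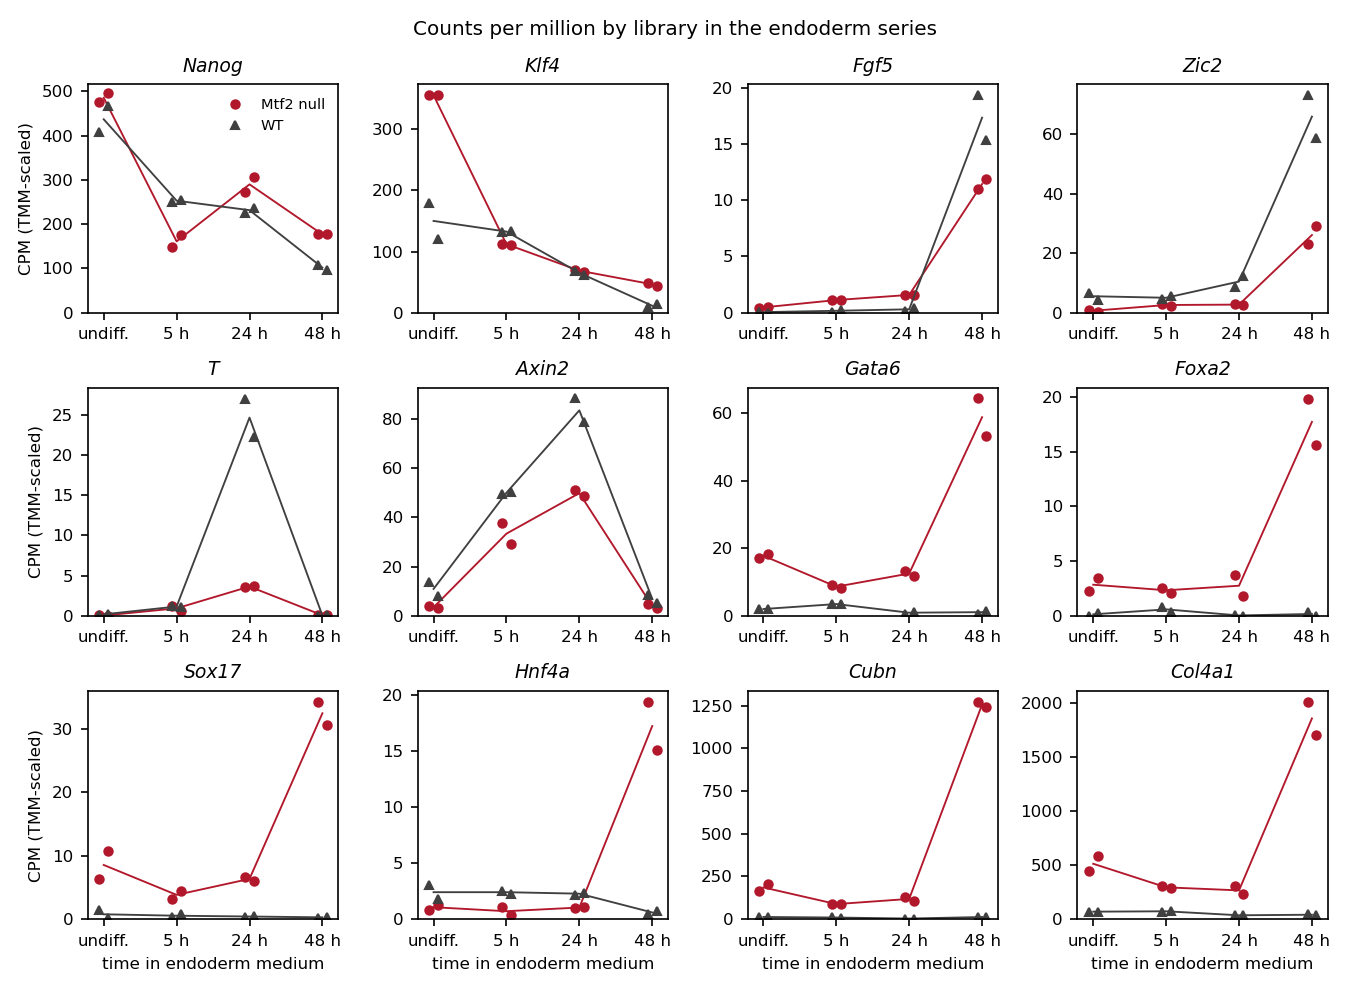
CPM of 12 genes (linear axes) in undifferentiated cells and at 5, 24 and 48 h of the endoderm medium, with each library as a point and lines through the means of the libraries, in Mtf2 null (circles) and WT cells (triangles). Foxa2, Sox17, Gata6, Hnf4a, Cubn and Col4a1 stay near or below their starting level until 24 h in Mtf2 null cells and are highest at 48 h, at 19.4 and 15.1 CPM for Hnf4a.

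Genes of the extraembryonic endoderm moved with them. Of the 18 tested members of that 20-gene list, 12 rose and none fell, with a median log2 fold change of 1.84. Cubn, the large endocytic receptor cubilin of visceral endoderm, was at 164 and 206.5 CPM before differentiation and 1272 and 1240 CPM at 48 h (2.76 ± 0.15 SE, adjusted p = 1.53e-11 by edgeR). Its partner Amn, which anchors cubilin in the membrane, rose from 6.27 and 8.14 CPM to 78.2 and 61.0 CPM (3.27 ± 0.20, adjusted p = 9.87e-11). Dab2, the adaptor that carries the same receptors into the cell, rose from 39.8 and 47.1 CPM to 251.5 and 210.8 CPM (2.41). The 3 parts of this uptake pathway thus rose with no overlap between the times. Ttr had no count before differentiation and 8.01 and 6.84 CPM at 48 h, at least 29.2-fold higher against a floor of 3 counts per library. Cited1, a transcriptional coactivator of the visceral endoderm, rose from 0.502 and 1.29 CPM to 13.5 and 14.5 CPM (3.96), and Sox7, a factor of parietal endoderm, from 17.0 and 14.4 CPM to 38.0 and 39.65 CPM (1.31). Pdgfra, a receptor of primitive endoderm that mesoderm also expresses, rose from 10.3 and 13.0 CPM to 44.4 and 42.9 CPM (1.90). Apob, the lipoprotein scaffold of yolk sac and liver, was at 3.93 and 5.14 CPM before and 12.7 and 9.77 CPM at 48 h (1.31), and its call was lost without the first 48 h library (1.11, adjusted p = 0.00654), the first undifferentiated library (1.125, adjusted p = 0.00886) or the second (1.515, adjusted p = 0.00107). Other secreted products remained low. Afp stayed at or below 0.225 CPM and Apoa1 at or below 0.251 CPM in all 4 libraries, and the retinol carrier Rbp4 was at 0 and 0.6 CPM before and 0.524 and 0.698 CPM at 48 h.

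Of 13 basement membrane genes, 5 rose, 1 fell and the median log2 fold change was 0.82. Col4a1 and Col4a2, the paired chains of collagen IV and members of both lists, rose from 444 and 582 CPM to 2017 and 1705 CPM (1.86 ± 0.15, adjusted p = 4.32e-09 by edgeR) and from 236 and 316 CPM to 1124 and 958.5 CPM (1.92). Sparc, a collagen-binding protein made in bulk by parietal endoderm, rose from 234 and 289 CPM to 986 and 860.5 CPM (1.82), and the laminin chain Lamb1 from 317 and 418 CPM to 959 and 809 CPM (1.27). The other laminin chain of this membrane, Lama1, was at 634 and 819 CPM before and 1464 and 1289 CPM at 48 h (0.92), short of the fold threshold. Nidogens, which link laminin to collagen IV, parted. Nid2 rose from 136.9 and 157 CPM to 416 and 363 CPM (1.41), and Nid1 fell from 191.6 and 184.6 CPM to 62.9 and 59.2 CPM (-1.62).

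**Figure D2:**
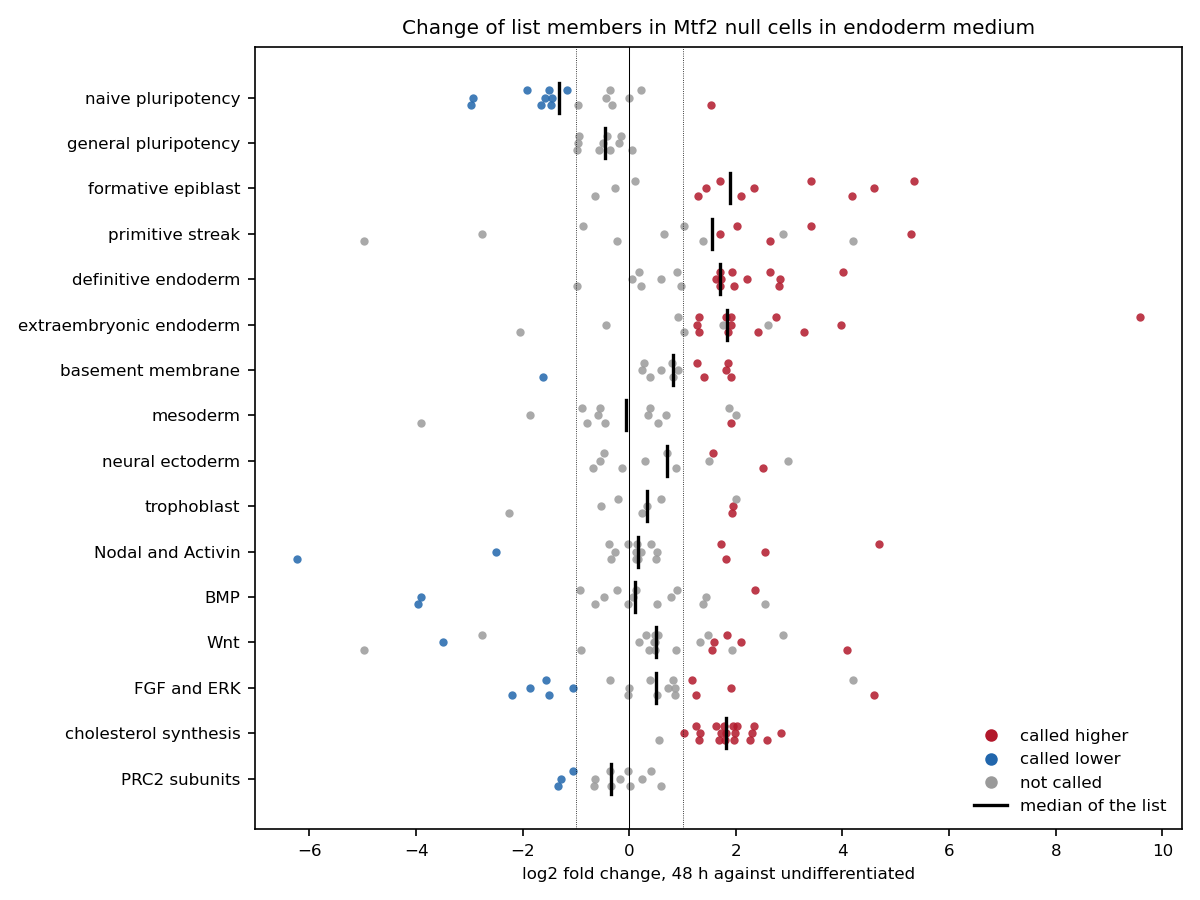
Log2 fold change at 48 h against undifferentiated Mtf2 null cells for each tested member of 16 gene lists, red where called higher, blue where called lower and grey where not called, with black bars at list medians and dotted lines at a change of 1 in size. The cholesterol list lies to the right of 0 as a whole (19 of 20 called, median 1.81), and the formative epiblast (1.89), extraembryonic endoderm (1.84) and definitive endoderm (1.71) lists have medians close to it. The lists were chosen with earlier results of these data known.

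Most rises of the endoderm genes came between 24 and 48 h. Against the undifferentiated cells, 209 genes were called higher and 421 lower at 5 h (1.09% and 2.19% of the genes tested, 3.27% in all), 405 and 119 between 5 and 24 h (2.1% and 0.618%, 2.72% in all), and 566 and 174 between 24 and 48 h (2.94% and 0.903%, 3.84% in all). These steps share libraries with the whole comparison, so their counts are given side by side and no overlap is read from them. Of the 18 tested extraembryonic endoderm genes, none was called higher and 5 lower at 5 h, none was called between 5 and 24 h, and 13 were called higher between 24 and 48 h. For definitive endoderm the counts were 0 higher and 3 lower, then 2 and 0, then 11 and 1. Cubn was at 87.2 and 88.1 CPM at 5 h (step of -1.08, called) and at 128 and 107.8 CPM at 24 h, below both undifferentiated libraries, before its step of 3.41 to 48 h. Gata4 dipped likewise to 15.2 and 14.9 CPM at 5 h (-1.06, called) and stood at 18.55 and 14.9 CPM at 24 h, before a step of 2.61. Col4a1 stood at 303 and 229.8 CPM at 24 h, and its last step was 2.81. Hnf4a was still at 1.02 and 1.06 CPM at 24 h and Foxa2 at 3.69 and 1.81 CPM. Over the 1149 genes that rose, the last step was the largest of the 3 for 636, the middle step for 286 and the first for 227. Of the 571 genes that fell, the first step was the largest fall for 188, the middle for 121 and the last for 262. Both sets were picked by the undifferentiated and 48 h libraries, which the first and last steps share. The 2 splits thus follow in part from that choice and are no measure of timing, and the steps differ in length.

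Naive pluripotency genes, which mark the ground state that LIF maintains, fell in large part. Of 16 members, 9 fell and 1 rose, with a median log2 fold change of -1.32. Tet2, a methylcytosine dioxygenase, fell from 412 and 369 CPM to 46.8 and 52.85 CPM (-2.97 ± 0.11 SE, adjusted p = 1.44e-13 by edgeR). Klf4, a direct target of LIF signaling, fell from 355 and 356 CPM to 48.4 and 44.3 CPM (-2.94 ± 0.17, adjusted p = 6e-11), most of it within 5 h (113 and 110.9 CPM). Nanog was at 476 and 496 CPM before, 147.6 and 174.5 CPM at 5 h, 272.5 and 307 CPM at 24 h and 177 and 177 CPM at 48 h (-1.46). It was thus lower at each later time, with a partial return at 24 h whose step of 0.85 was not called. Esrrb fell from 634 and 600.2 CPM to 220.3 and 213 CPM (-1.51), Klf5 from 1308 and 1205 CPM to 407 and 389 CPM (-1.66), Tfcp2l1 from 916 and 772 CPM to 303 and 303 CPM (-1.48) and Nr0b1 from 236 and 271 CPM to 66.2 and 67.2 CPM (-1.925 ± 0.12). Klf2 (-1.18) and Prdm14 (-1.57) completed the 9. Dppa3, a maternal and germ cell factor, went the other way, from 8.28 and 11.7 CPM to 29.3 and 28.2 CPM (1.53). Tbx3 (-0.32), Zfp42 (-0.43), Nr5a2 (-0.35), Tcl1 (-0.96), Fbxo15 (0.21) and Fgf4 (0.00) were not called. Fbxo15 had dropped to 11.9 and 10.2 CPM at 5 h and was back at 40.6 and 52.4 CPM at 48 h, beside 40.0 and 40.3 CPM at the start.

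No gene of the general pluripotency list, shared by naive and primed cells, was called among its 10 members, whose median was -0.45. DESeq2 and RLE scaling each called 1 of them lower, upper quartile scaling 3, and the fit without the second 48 h library 2. Pou5f1, which encodes OCT4, was at 766 and 864 CPM before and 514 and 582 CPM at 48 h (-0.57 ± 0.12, adjusted p = 0.000783 by edgeR), and Sox2 was at 336 and 332.5 CPM and then 172 and 172 CPM (-0.96). Lin28a overlapped between the times (282 and 278 CPM, then 258.5 and 323 CPM). In the 12-gene formative epiblast list, 9 rose and none fell, with a median of 1.89. Zic2, a zinc finger factor of the epiblast after implantation, rose from 0.92 and 0.343 CPM to 23.0 and 29.25 CPM (5.34 ± 0.30, adjusted p = 2.62e-11 by edgeR), and Zic5 from 1.76 and 0.857 CPM to 20.7 and 27.3 CPM (4.19). Fgf5, the classical marker of that stage, rose from 0.418 and 0.514 CPM to 11.0 and 11.9 CPM (4.59), and the head-organizing factor Otx2 from 1.17 and 1.71 CPM to 13.0 and 17.7 CPM (3.41). The de novo DNA methyltransferase genes Dnmt3a (33.5 and 40.9 CPM to 90.5 and 90.1 CPM, 1.28) and Dnmt3b (164.8 and 183.6 CPM to 425.6 and 516 CPM, 1.435 ± 0.15) rose, most of it by 5 h, while their cofactor gene Dnmt3l did not (0.11). Sall2 (2.34) and Pou3f1 (1.69) rose as well. Lef1 was at 3.18 and 2.23 CPM before and 5.99 and 17.0 CPM at 48 h (2.09). Its 48 h libraries stood far apart, and its call was lost without the second of them (1.14, adjusted p = 0.0367) and without either undifferentiated library (2.37, adjusted p = 0.00379 without the first and 1.86, adjusted p = 0.0116 without the second). Grhl2 and Lin28b were not called (-0.26 and -0.64).

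Of 14 tested primitive streak genes, 5 rose and none fell over the whole 48 h, with a median of 1.55, and without the first undifferentiated library 3 rose. The 5 were Eomes, Foxa2, Hhex, Lhx1 and Otx2, of which Foxa2, Hhex and Otx2 are also on the endoderm or formative lists. T, the brachyury gene that defines the streak, was at 0.0837 and 0 CPM before differentiation, 1.23 and 0.645 CPM at 5 h, 3.60 and 3.69 CPM at 24 h and 0.0748 and 0.0698 CPM at 48 h. Only the 24 h libraries stood clear of the rest, with a called step up of 1.95 and a called step down of -5.48. In WT cells the 24 h level of T was 27.0 and 22.3 CPM. Eomes, the T-box factor needed for definitive endoderm, rose from 4.10 and 3.00 CPM to 13.9 and 14.8 CPM (2.01 ± 0.19, adjusted p = 5.92e-08 by edgeR). Lhx1 had 3 counts over both undifferentiated libraries and was at 5.39 and 5.24 CPM at 48 h, a ratio of 41.8 with an exact 95% interval of 14.0 to 205 for counting error alone. Without the first undifferentiated library its adjusted p was 0.00125. Gsc and Mixl1, which mark the anterior streak, were below 1 CPM at every time.

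The Wnt readout was high at the times when the medium held CHIR99021. Axin2, the feedback inhibitor that reports Wnt activity, was at 3.85 and 3.09 CPM before, 37.7 and 29.1 CPM at 5 h, 51.0 and 48.7 CPM at 24 h and 4.64 and 3.28 CPM at 48 h. The 48 h libraries fell within or near the starting range (0.18 over the whole interval, not called). Of 22 tested Wnt genes, 5 rose and 1 fell over 48 h, with a median of 0.51. Cdx1, a posterior Wnt target, fell from 6.02 and 4.80 CPM to 0.299 and 0.628 CPM (-3.50). Dkk1, a secreted Wnt inhibitor of the anterior endoderm, rose from 1.42 and 1.03 CPM through 8.50 and 10.1 CPM at 5 h and 10.2 and 9.495 CPM at 24 h to 21.5 and 20.4 CPM (4.08 ± 0.23, adjusted p = 2.62e-11 by edgeR), so unlike Axin2 it went on rising. The receptor gene Fzd8 rose (1.84). The calls of Fzd2, Lef1 and Wnt11 each rested on single libraries. Fzd2 was 1.55 higher and lost its call without the first undifferentiated library (1.23, adjusted p = 0.00193). Lef1 was 2.09 higher, with the losses given above (1.14, adjusted p = 0.0367 without the second 48 h library, 2.37 and 0.00379, and 1.86 and 0.0116, without the first and second undifferentiated libraries). Wnt11 was at 3.09 and 2.66 CPM and then 10.8 and 6.70 CPM (1.597), and was lost without the first 48 h library (1.22, adjusted p = 0.0213), the first undifferentiated library (1.71, adjusted p = 0.00589) or the second (1.49, adjusted p = 0.0112).

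Among 18 tested genes of Nodal and Activin signaling, 4 rose and 2 fell, with a median of 0.16. Feedback targets were among those that rose. Lefty1 and Lefty2, secreted antagonists that Nodal signaling itself turns on, went from 33.7 and 34.8 CPM to 143.4 and 97.2 CPM (1.81 ± 0.24, adjusted p = 4.96e-06 by edgeR) and from 31.7 and 26.8 CPM to 196 and 146 CPM (2.55 ± 0.21, adjusted p = 7.93e-09). Smad3, which carries the signal to the nucleus, rose from 7.28 and 7.37 CPM to 26.0 and 22.4 CPM (1.72). The fallers were a ligand subunit and a coreceptor. Inhbb, which encodes the beta B chain of activin, was at 83.4 and 85.9 CPM before, 25.7 and 22.3 CPM at 5 h, 3.23 and 2.86 CPM at 24 h and 0.299 and 1.885 CPM at 48 h (-6.23 ± 0.29, adjusted p = 2.53e-12). Tdgf1, the coreceptor Cripto, fell from 1032 and 1117 CPM to 157 and 222 CPM (-2.51). Nodal itself (-0.27), the receptor genes Acvr1b, Acvr2a and Acvr2b (-0.35 to 0.13), Smad2 (0.15) and Foxh1 (0.53) were not called. Inhbb lies on chromosome 1 (119415465 to 119422248, minus strand) and Lefty1 on the same chromosome (180935022 to 180938400, plus strand).

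Of 16 tested genes of the BMP list, 2 fell and 1 rose, with a median of 0.10 (-0.04 under upper quartile scaling). Of all genes tested, 2.96% fell and 5.97% rose. By step, 0 were called higher and 2 lower at 5 h, 2 and 0 between 5 and 24 h, and 2 and 4 between 24 and 48 h. The endoderm medium held the BMP receptor inhibitor after its first day, and its part in these changes was not tested. Id1, a direct BMP target, fell from 42.0 and 59.0 CPM to 3.97 and 2.79 CPM (-3.90 ± 0.27, adjusted p = 5.53e-10 by edgeR), and Bmp4 from 29.1 and 29.8 CPM to 2.10 and 1.67 CPM (-3.96). Bmp7 rose from 1.76 and 1.97 CPM to 11.5 and 7.75 CPM (2.36). Id2 (-0.92), Id3 (-0.65) and Id4 (-0.47) were lower without being called.

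The mesoderm series of the same line, fitted together with the endoderm libraries over 19601 genes, set these values against a medium with BMP4 and the inhibitor of Nodal receptors. There 813 genes rose and 481 fell at 48 h (4.15% and 2.45% of the genes tested, 6.6% in all), while the joint fit called 9.07% in endoderm medium (6.05% up and 3.02% down), and the change differed between the media for 79 genes in the direction of endoderm and 42 in that of mesoderm, 0.403% and 0.214% or 0.617% in all. These counts fell with fewer libraries, to 47, 48 and 51 of the former without the first undifferentiated endoderm, the second 48 h mesoderm or the second undifferentiated mesoderm library. Of the latter, 27 were left without the second undifferentiated or second 48 h endoderm library, 23 without the first 48 h mesoderm library and 24 without the first undifferentiated mesoderm library. On the scale of the joint fit, Lefty1 was at 33.2 and 34.0 CPM and then 139 and 95.6 CPM in endoderm medium, and at 38.3 and 38.0 CPM and then 0 and 0.16 CPM in mesoderm medium. With 2 counts left at 48 h, its fall in mesoderm medium was 445-fold, with an exact 95% interval of 123 to 3684 for counting error. Lefty2 was at 31.4 and 27.8 CPM and then 0.369 and 0.080 CPM in mesoderm medium (a change of -7.04, which differed from that in endoderm medium by 9.58 ± 0.56 SE, adjusted p = 5.93e-14 by edgeR). Id1 went from 36.7 and 52.9 CPM to 284 and 276 CPM in mesoderm medium, a change of 2.65, and the media differed by -6.55 (adjusted p = 1.37e-15). Id3 (-4.30), Bmp4 (-3.22) and Id2 (-2.71) differed in the same direction. Id4 differed by -1.75, but its call was lost without the first endoderm 48 h library (-1.64, adjusted p = 0.00275), the first endoderm undifferentiated library (-1.58, adjusted p = 0.00396), the second mesoderm 48 h library (-1.69, adjusted p = 0.00175) or the second mesoderm undifferentiated library (-1.59, adjusted p = 0.00451).

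**Figure D3:**
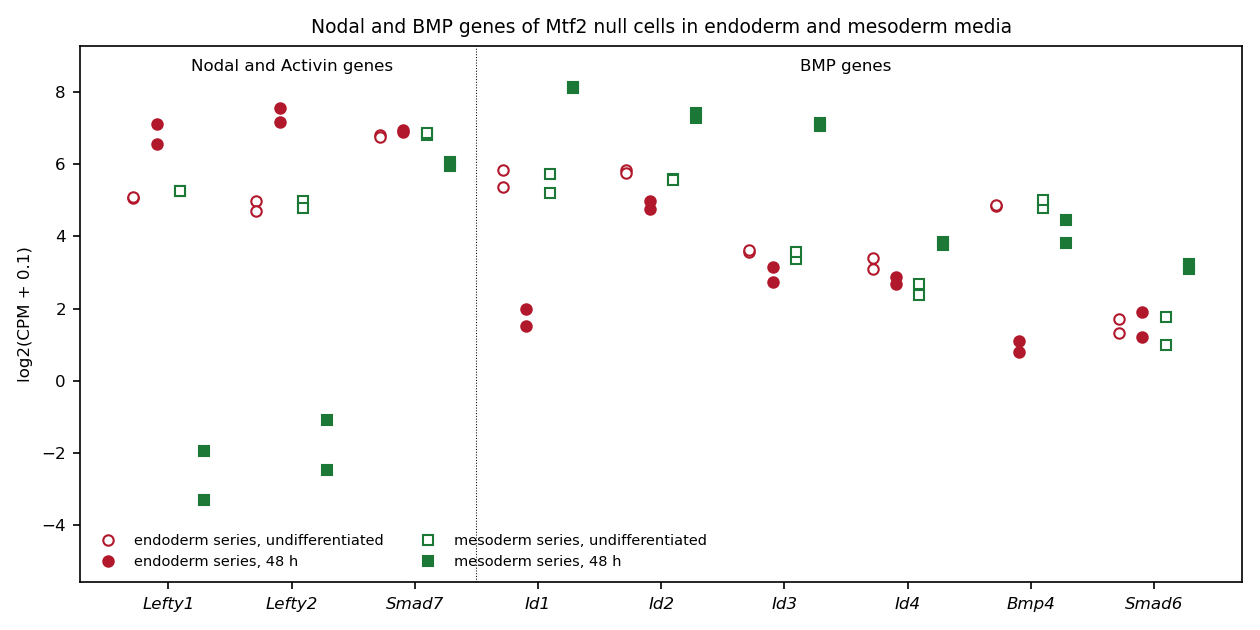
Log2(CPM + 0.1) of 3 Nodal feedback targets and 6 genes of BMP signaling in Mtf2 null cells, with each library as a point, open before differentiation and filled at 48 h, in endoderm medium (circles) and mesoderm medium (squares). Lefty1 and Lefty2 end high in endoderm medium and near 0 CPM in mesoderm medium, and Id1 and Id3 end in the opposite order.

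Endoderm genes were compared between the media by the same test. In mesoderm medium, where Nodal receptors were inhibited, 8 of the 19 definitive endoderm genes tested in the joint fit rose and 1 fell (median 1.15), and 11 of 18 extraembryonic endoderm genes rose and none fell (median 1.63). The change differed between the media for 1 of 19 and 1 of 18, beside 0.617% of all genes tested, and for Amn besides without the first undifferentiated mesoderm library. Prdm1, a zinc finger repressor, was at 32.7 and 28.2 CPM and then 33.8 and 36.6 CPM in endoderm medium and at 37.9 and 29.2 CPM and then 7.56 and 9.60 CPM in mesoderm medium (difference 2.17, adjusted p = 2.91e-07 by edgeR). Spink1, a secreted protease inhibitor, differed by -5.63 (adjusted p = 2.5e-08), having risen in mesoderm medium. For Hnf4a the change was 3.81 in mesoderm medium (difference 0.20, adjusted p = 0.971), and for Cubn 2.04 (0.71, adjusted p = 0.0746). For Gata6 it was 0.56, not called (difference 1.16, adjusted p = 0.0126), and for Amn 1.59 (1.68, adjusted p = 0.00149). These differences were not called, which does not show that the media acted alike.

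FGF and ERK genes went both ways, with 4 of 19 up, 5 down and a median of 0.51. Negative feedback genes were among those that fell. Spry4 went from 240.6 and 242.5 CPM to 54.0 and 51.2 CPM (-2.20 ± 0.14, adjusted p = 9.87e-11 by edgeR), Spry2 from 137 and 143 CPM to 46.5 and 48.2 CPM (-1.565 ± 0.12), and the ETS factor gene Etv4 from 108.5 and 128 CPM to 40.4 and 43.1 CPM (-1.5). The ligand gene Fgf17 fell by 1.87 on the log2 scale. Spred1 was 1.05 lower on the same scale, a call lost without the first 48 h library (-0.95) or the first undifferentiated library (-0.96). The phosphatase gene Dusp4 (1.18) and Fgf5 rose. Fgf15 rose by 1.90 and lost its call without the first 48 h library (1.90, adjusted p = 0.00113), the first undifferentiated library (1.78, adjusted p = 0.00442) or the second (2.04, adjusted p = 0.00171). Fgfr4, the receptor for FGF15, rose from 3.85 and 4.29 CPM to 9.35 and 10.05 CPM (1.25) and lost its call without the first undifferentiated library (1.18, adjusted p = 0.00185). Fgf4 was unmoved in its levels (233 and 239.9 CPM, then 231.6 and 240.0 CPM).

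The same medium and times gave another course in WT cells. There 993 genes rose and 577 fell (5.16% and 3% of the genes tested, 8.15% in all), and the change differed between the lines for 517 genes in the direction of Mtf2 null and 493 in that of WT (2.68% and 2.56%, 5.24% in all). Without the first undifferentiated Mtf2 null library these counts were 314 and 332, without the second WT 48 h library 323 and 334, without the first undifferentiated WT library 341 and 509, without the second 451 and 316, and without the first Mtf2 null 48 h library 354 and 321. Of the 18 tested definitive endoderm genes, 5 rose and 1 fell in WT (median 0.16), and of the 18 extraembryonic endoderm genes 1 rose and 3 fell (median -0.30). The difference between the lines was called in the Mtf2 null direction for 7 and 9 of them and in the WT direction for 2 and 0. The 2 were Epcam and Prdm1, and 1 was left without the first Mtf2 null 48 h, first undifferentiated Mtf2 null, second WT 48 h or second undifferentiated WT library. Hnf4a was at 3.03 and 1.78 CPM and then 0.433 and 0.753 CPM in WT, and the lines differed by 6.03 (adjusted p = 4.43e-07 by edgeR). Cubn was at 14.6 and 10.0 CPM and then 13.2 and 11.0 CPM in WT (difference 2.78, adjusted p = 6.62e-08), so its starting level was also far below that of Mtf2 null cells. Gata6 was at 1.89 and 2.16 CPM and then 0.693 and 1.51 CPM (difference 2.62), Pdgfra at 3.41 and 2.62 CPM and then 0.520 and 0.283 CPM (4.77), and Col4a1 at 69.7 and 68.0 CPM and then 45.4 and 35.5 CPM (2.625). Lama1 fell in WT from 184 and 160.1 CPM to 35.5 and 28.9 CPM, which gave a difference of 3.34. Foxa2 and Sox17 were at or below 1.42 CPM in all WT libraries of both times, and their differences of 2.31 (adjusted p = 0.302) and 3.37 (adjusted p = 0.00696) were not called. Both 48 h Mtf2 null libraries lay above both 48 h WT libraries for all 11 definitive and all 12 extraembryonic endoderm genes that rose. Before differentiation this already held for 9 of the 11 and 11 of the 12. These genes were picked by their rise to 48 h in Mtf2 null cells, so the counts at 48 h follow in part from that choice. The share over all genes tested was not counted, so these counts describe levels only. The summed level of the 7 definitive endoderm markers was 18.1 and 16.0 CPM in undifferentiated WT cells and 15.2 and 12.5 CPM at 48 h.

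**Figure D4:**
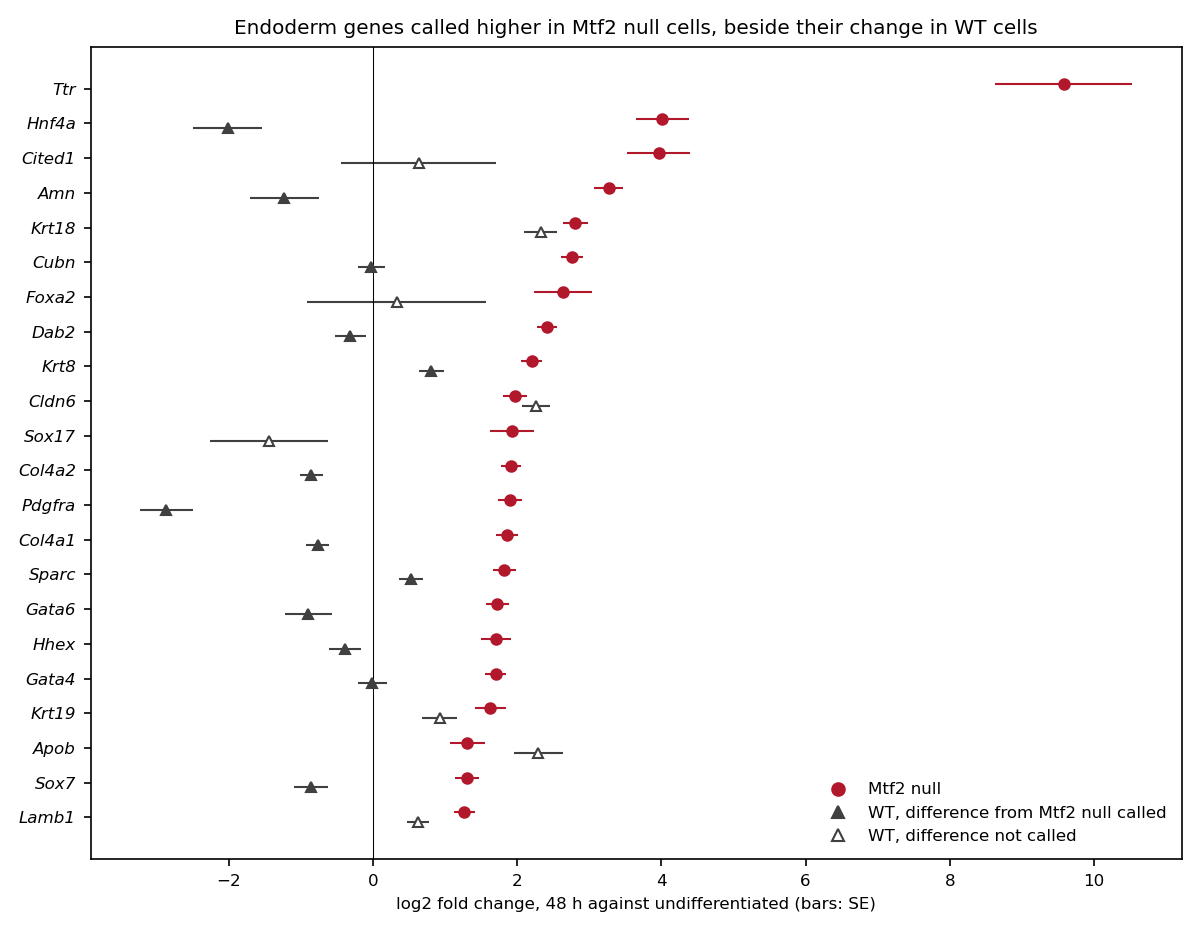
Log2 fold change at 48 h (± SE) of 22 definitive and extraembryonic endoderm genes that rose in Mtf2 null cells (circles), with the change of the same genes in WT cells (triangles, filled where the difference between the lines was called; Ttr, with no count in WT, has none). Most WT values lie near or below 0, and Hnf4a lies at 4.01 in Mtf2 null and -2.01 in WT cells. The genes were picked by their rise in Mtf2 null cells, so lower WT values follow in part from that choice. Over all tested members the WT medians were 0.16 (definitive) and -0.30 (extraembryonic).

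Jarid2 null cells were compared in the same way. Their 48 h libraries carry another time (28 h) in the column names of the table and were matched by their library numbers, so their time is less certain. In them 943 genes rose and 694 fell (4.9% and 3.6%, 8.5% in all), and the change differed from that of Mtf2 null cells for 613 genes in the Mtf2 null direction and 416 in the other (3.18% and 2.16%, 5.34% in all). Of the former, 354 were left without the first undifferentiated Mtf2 null library and 368 without the first undifferentiated Jarid2 null library. Of the latter, 246 and 263 were left without the first 48 h and first undifferentiated Mtf2 null library, and 276 and 272 without the second 48 h and second undifferentiated Jarid2 null library. The 7 definitive endoderm markers summed to 14.6 and 16.7 CPM at 48 h. Of the definitive endoderm genes 8, and of the extraembryonic endoderm genes 9, differed in the Mtf2 null direction, and 3 and 0 in the other. Without the first undifferentiated Jarid2 null library, 5 definitive endoderm genes differed in the Mtf2 null direction.

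Pluripotency genes were set against WT cells as well. Among naive genes, 12 of 16 fell and none rose in WT (median -1.55). Tbx3 was at 96.7 and 87.05 CPM at 48 h in Mtf2 null cells and 20.4 and 30.1 CPM in WT cells (difference 2.30, adjusted p = 2.08e-06 by edgeR). Dppa3 differed by 3.08 and Klf5 by -1.80. Formative genes rose in WT for 10 of 12 (median 2.64). Otx2 reached 82.0 and 55.3 CPM there, and its difference of -2.01 was not called (adjusted p = 0.00229). Grhl2 rose in WT from 9.09 and 9.09 CPM to 39.2 and 29.8 CPM, a difference of -2.19 that was called. General pluripotency genes showed 1 called difference from WT, Dppa2 (-1.09), which was lost without the first Mtf2 null 48 h library (-0.95, adjusted p = 0.0052), either Mtf2 null undifferentiated library (-1.07, adjusted p = 0.00292 and -1.11, adjusted p = 0.00169), the second WT 48 h library (-1.04, adjusted p = 0.00325) or the second WT undifferentiated library (-0.84, adjusted p = 0.00234). From Jarid2 null cells, 5 of these 10 genes differed, all in the Jarid2 null direction (median -0.97), and 2 did so without the first Mtf2 null 48 h library.

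Genes of cholesterol synthesis rose nearly as a block. Of 20 members, 19 rose and the median was 1.81, beside 5.97% of all genes tested that rose. The list was chosen with earlier results of these data known, so this count may follow in part from that choice. Fdps, which makes farnesyl diphosphate, was at 15.9 and 16.5 CPM before, 52.3 and 51.8 CPM at 5 h, 56.2 and 54.4 CPM at 24 h and 91.1 and 102.6 CPM at 48 h (2.58 ± 0.17 SE, adjusted p = 2.79e-10 by edgeR). All of its later libraries lay above both undifferentiated libraries, and those at 48 h were the highest. Hmgcs1, an early enzyme of the pathway, rose from 54.4 and 45.1 CPM to 221 and 269 CPM (2.30). The later enzymes Sqle (2.02), Cyp51 (1.97) and Dhcr7 (2.27) rose as well. Srebf2, the transcription factor that drives this set, rose from 145.6 and 154.8 CPM to 311 and 304 CPM (1.03), and without the first undifferentiated library its change was 0.99, short of the fold threshold. Pmvk was the exception (16.1 and 18.9 CPM, then 24.8 and 26.5 CPM, 0.56). In WT cells 6 of the 20 rose (median 0.87), and the difference between the lines was called for 7, all in the Mtf2 null direction. Of these calls 4 were left without the first undifferentiated Mtf2 null library, where Fdft1 (1.196, adjusted p = 0.00384), Idi1 (1.235, adjusted p = 0.00617) and Mvd (1.354, adjusted p = 0.00781) lost theirs. The same 3 genes lost it without the second undifferentiated or second 48 h Mtf2 null library or without the first WT library of either time. Ebp differed by 2.18 (adjusted p = 3.43e-07), Dhcr7 by 1.59 and Fdps by 1.55. Both undifferentiated Mtf2 null libraries lay below both WT libraries for 18 of the 20 genes, and both 48 h libraries for 9. The share over all genes tested was not counted, so these counts describe levels only. In mesoderm medium 14 of the 20 rose (median 1.45).

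**Figure D5:**
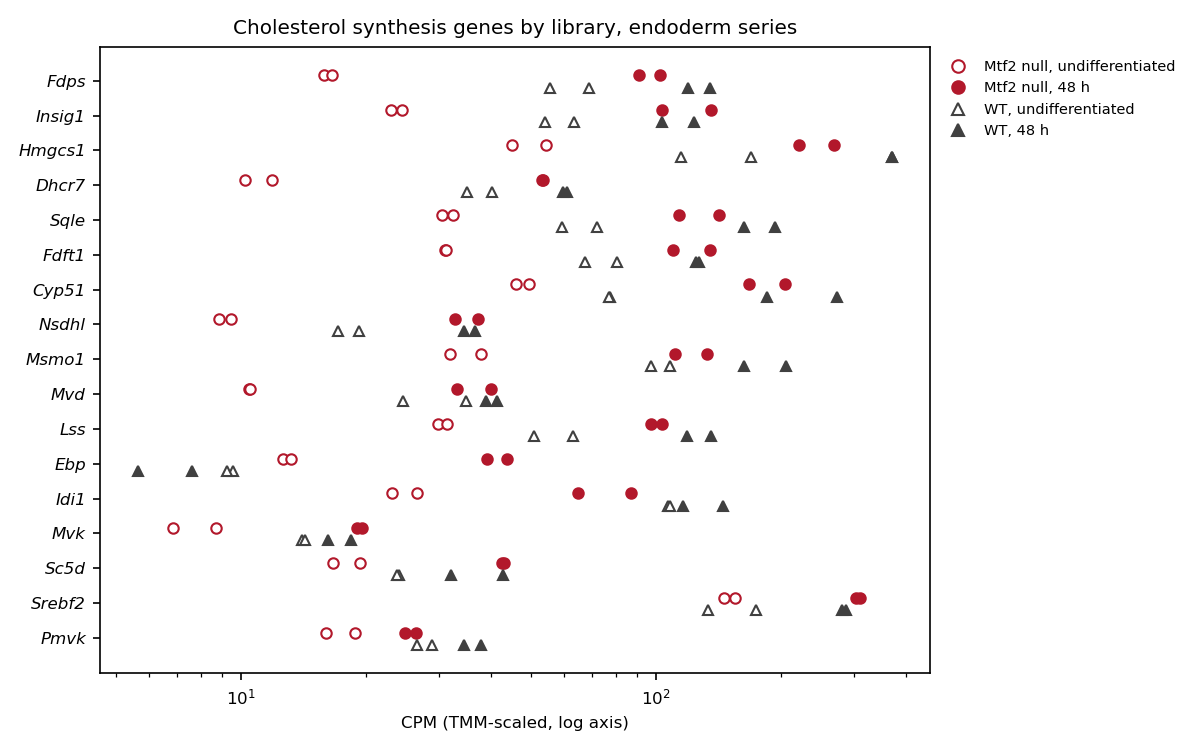
CPM (log axis) of 17 genes of cholesterol synthesis, with each library as a point, open before differentiation and filled at 48 h, in Mtf2 null (circles) and WT cells (triangles). Undifferentiated Mtf2 null cells lie lowest for most genes, as for Fdps at 15.9 and 16.5 CPM, and the 48 h libraries of both lines lie higher for most genes.

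Outside the lists, the genes that rose furthest included Pga5 and Cdh6. Pga5, which encodes the stomach protease precursor pepsinogen, was at 4.52 and 5.66 CPM before, 1.89 and 2.49 CPM at 5 h, 4.61 and 4.45 CPM at 24 h and 376 and 319 CPM at 48 h (6.09 ± 0.15, adjusted p = 5.5e-17 by edgeR). All of its rise fell in the last step. WT cells stood at 1.56 and 1.79 CPM at 48 h (difference between the lines 5.53), and Mtf2 null cells in mesoderm medium at 7.47 and 9.36 CPM on the joint scale (difference between the media 5.36, adjusted p = 1.76e-15). Pga5 lies on chromosome 19 (10668956 to 10678071, minus strand). Cdh6, a cadherin, rose from 0.92 and 1.37 CPM to 38.3 and 35.7 CPM (5.00), Vrtn from 0.167 and 0.429 CPM to 7.78 and 11.4 CPM (4.97), and Sprr2a2, a small proline-rich epithelial gene with close copies among which reads may be split, from 0.836 and 0.514 CPM to 29.2 and 25.8 CPM (5.32). Ugt1a7c, which shares its last exons with the other Ugt1a genes, rose from 0.335 and 0.343 CPM to 11.1 and 8.94 CPM (4.845). Prss12, Muc13 and Igfbp5 each had 1 count before differentiation. Their ratios were 188 (exact 95% interval 33.3 to 7445), 181 (32.1 to 7176) and 153.5 (27.2 to 6098), from 10.5 and 5.58 CPM, 8.31 and 7.05 CPM, and 4.49 and 8.38 CPM at 48 h. The processed pseudogene Gm6768 had no count before and 20.4 and 2.23 CPM at 48 h, at least 44.6-fold higher, but its libraries stood far apart and the call was lost without the first of them (adjusted p = 0.0292) or without either undifferentiated library (adjusted p = 0.0123 and 0.0107).

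Outside the lists, the genes that fell furthest included Khdc3 and Robo4. Khdc3, a maternal-effect gene of the oocyte, fell from 9.54 and 12.6 CPM to 0.0748 and 0.209 CPM (-6.17 ± 0.37, adjusted p = 6.83e-11 by edgeR). Robo4, an axon-guidance receptor of vessels, was at 9.95 and 11.3 CPM before and 25.02 and 19.5 CPM at 5 h, a step that was not called (1.07), and fell to 0.225 and 0.14 CPM at 48 h (-5.805). The long noncoding RNA Halr1, beside the Hoxa genes, fell from 14.1 and 16.9 CPM to 0.449 and 0.209 CPM (-5.53). Gjb1 (-4.98), Hal (-4.89), Elobl (-4.81), the pseudogene 2210409E12Rik (-5.225) and Gm49089 (-5.28) followed. Gm23472, a small nuclear RNA gene, went from 13.6 and 11.5 CPM to no count, at least 57.9-fold lower, and was lost without either 48 h library (adjusted p = 0.00433 and 0.00436) or the first undifferentiated library (adjusted p = 0.00197). Nnt is uncertain, since the table has 2 overlapping entries of that name. The called entry went from 21.25 and 18.3 CPM to no count, while the sum of both entries was 29.3 and 30.8 CPM before and 31.8 and 32.6 CPM at 48 h.

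Genes of other lineages are set beside the 5.97% of all genes tested that rose. Of 14 tested mesoderm genes, 1 rose, Pdgfra (described with the extraembryonic endoderm genes), and the median was -0.06. Of 11 tested neural genes 2 rose (median 0.70), the intermediate filament gene Nes (9.62 and 11.7 CPM to 35.7 and 27.6 CPM, 1.565 ± 0.20) and Sox3 (0.502 and 0.429 CPM to 1.87 and 3.49 CPM, 2.51), whose call was lost without the second 48 h library (1.98, adjusted p = 0.0113) or either undifferentiated library (2.62, adjusted p = 0.00611 and 2.40, adjusted p = 0.00796). Of 9 trophoblast genes (median 0.33), Ascl2 (1.42 and 1.46 CPM to 4.94 and 6.00 CPM, 1.92) and Gata3 (1.00 and 0.772 CPM to 3.59 and 3.28 CPM, 1.94) were called higher. The call of Gata3 was lost without any of the 4 libraries, at 1.88 (adjusted p = 0.00827) and 2.00 (adjusted p = 0.00436) without the first and second 48 h library and 2.14 (adjusted p = 0.00741) and 1.77 (adjusted p = 0.017) without the first and second undifferentiated library. Of 39 Hox genes, 29 were too low to be tested and 1 of the other 10 rose (median 1.6, with 9 above 0), Hoxc13 (1.00 and 1.63 CPM to 5.91 and 5.66 CPM, 2.13), lost without the first undifferentiated library (1.82, adjusted p = 0.00498). In the epithelial and mesenchymal list 3 of 15 rose (median 0.08, and -0.07 under upper quartile scaling), Cldn6, Ocln (1.34) and Cldn7 (1.05). Cldn7 was lost without the first 48 h library (1.01, adjusted p = 0.00114) or the first undifferentiated library (0.85, adjusted p = 0.00384). Cdh1 (0.08), Cdh2 (0.31), Snai1 (0.68) and Vim (0.655) were not called, so neither the cadherin switch genes nor the main mesenchymal genes passed the test. Among 9 genes of DNA methylation, Dnmt3a, Dnmt3b and Tet3 (25.9 and 26.1 CPM to 56.5 and 55.2 CPM, 1.10) rose, Tet2 fell and the median was 0.25.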

How the data were processed

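Total RNA of mouse embryonic stem cells was depleted of ribosomal RNA (KAPA RiboErase) and sequenced on a NextSeq 500 as 75-bp read pairs. The authors mapped reads to GRCm38 (mm10) with Bowtie2 and deposited estimated counts per gene from Salmon, not normalized, in 1 table for the endoderm series and 1 for the mesoderm series. The labels also list CASAVA, HTSeq and DESeq2, and versions are not given in the sources used here. The endoderm table has 54393 gene identifiers, and 73.1% of its values are whole numbers. Columns were matched to samples by library number, line and time, and the authors' own comparisons were not used.

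Counts were rounded and fitted with edgeR 4.0.16 (limma 3.58.1, R 4.3.3) over the 24 endoderm libraries in 12 groups, with TMM scaling, filterByExpr (minimum count 10, minimum total 15) and the quasi-likelihood test. The difference of 2 changes was tested as an interaction, and the media were compared in a fit of all 48 libraries of both series. A gene was called at an adjusted p under 0.001 and an absolute log2 fold change over 1. Gene tables and figures were made with Python 3.11.15, pandas 2.3.3, numpy 2.4.6 and matplotlib 3.10.9. In simulated counts over 18487 genes of the main comparison, 63% of genes changed by 1.5 and 86% of those changed by 2 on the log2 scale were recovered. Intervals for ratios of low counts are exact, at 95%, and cover counting error only, as does the floor of 3 counts. Library totals limit precision at low levels.

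The comparison and the 22 gene lists were chosen with earlier results of these data known. Values of some genes of the lists are not reported here, although the counts over the lists hold them. Named genes are members of those lists and, outside the lists, the 10 with the largest change in each direction among called genes whose groups did not overlap and whose higher group averaged 5 CPM or more (5 genes each way for differences between lines or media). Alternatives covered scaling, filters, thresholds, DESeq2 1.42.0, limma-voom, smaller sets of libraries, a replicate block and each library left out. Replicate numbers were not treated as pairs, since no source says that a number marks a shared culture and same-numbered Mtf2 null libraries deviated together with correlations of -0.157 to 0.124 only.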

Additional observations from a re-analysis of the deposited data

Results flagged for a closer look

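Changes at 48 h that differed between lines or media by a test of the difference itself are given here for part of the genes called, all on the log2 scale with edgeR's quasi-likelihood test. Against WT cells, 517 genes differed in the Mtf2 null direction and 493 in the WT direction, and against Jarid2 null cells 613 and 416. Between the endoderm and mesoderm media, 79 genes of Mtf2 null cells differed in the endoderm direction and 42 in the mesoderm direction. Of the genes named below, those marked as losing their call did so without at least 1 library.

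Toward Mtf2 null cells, the endoderm genes were Hnf4a (6.03), Pdgfra (4.77), Amn (4.5), Kit (4.19), Lama1 (3.34), Cubn (2.78), Col4a2 (2.77), Dab2 (2.73), Col4a1 (2.62), Gata6 (2.62), Sox7 (2.17), Hhex (2.10), Gata4 (1.71), Krt8 (1.40) and Sparc (1.29). Of these Krt8 and Sparc lost their call. Krt8 was lost without the first Mtf2 null 48 h library (1.18, adjusted p = 0.00108), the first undifferentiated Mtf2 null library (1.26, adjusted p = 0.00152) or the first undifferentiated WT library (1.29, adjusted p = 0.00179). Sparc was lost without the first Mtf2 null 48 h library (1.19, adjusted p = 0.00273), the first undifferentiated Mtf2 null library (1.14, adjusted p = 0.00399), the first WT 48 h library (1.15, adjusted p = 0.0017) or the first undifferentiated WT library (1.06, adjusted p = 0.00331). Of the cholesterol synthesis genes, Fdps differed by 1.55, and others are given with that list. The other genes were Cdh5 (7.98), Cdh6 (6.45), Efnb1 (6.27), Nt5e (6.13), Pga5 (5.53), Dkk1 (5.09), Bmp7 (3.14), Dppa3 (3.08), Zic5 (2.40) and Ascl2 (2.05). The WT 48 h libraries had no count of Cdh5, a vascular cadherin at 2.51 and 2.83 CPM and then 9.73 and 11.3 CPM in Mtf2 null cells, so its value depends on the prior count of the fit and is no bound, and without the first undifferentiated WT library its adjusted p was 0.00135 (7.28). Dkk1 lost its call without either undifferentiated WT library (5.07 and 5.10, adjusted p = 0.00382 in both). Ascl2 lost its call without 7 of the 8 libraries, with values of 1.75 to 2.18.

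Toward WT cells, the genes included Prdm1 (-1.15), Dnmt3b (-1.21), Epcam (-1.22), Pdk1 (-1.68), Cldn7 (-2.15), Adgrd1 (-4.17), Fut1 (-4.75), Ccdc194 (-5.08), 9930014A18Rik (-5.56) and Nnt (-12.1). Prdm1 lost its call without the first Mtf2 null 48 h (-1.11, adjusted p = 0.00204), first undifferentiated Mtf2 null (-1.06, adjusted p = 0.0026), second WT 48 h (-1.08, adjusted p = 0.00217) or second undifferentiated WT library (-0.99, adjusted p = 0.00358). Dnmt3b lost it without the first Mtf2 null 48 h (-1.08, adjusted p = 0.00415), either undifferentiated Mtf2 null (-1.29, adjusted p = 0.00105 and -1.13, adjusted p = 0.00257), the first WT 48 h (-1.01, adjusted p = 0.00161) or the second undifferentiated WT library (-1.04, adjusted p = 0.00324). Nnt rests on 1 of 2 overlapping entries with no count in the Mtf2 null 48 h libraries, so its value is no bound, and it lost its call without either Mtf2 null 48 h library, the first undifferentiated Mtf2 null library or either undifferentiated WT library, with values of -11.9 to -12.3.

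Between the media, genes in the endoderm direction were Lefty1 (10.44), Lefty2 (9.58), Pga5 (5.36), Trim67 (4.79), Irs4 (3.72), Nt5e (3.56), A730049H05Rik (3.51), Dkk1 (3.14) and Fgf15 (3.07). The value of Lefty1 rests on 2 counts in mesoderm medium at 48 h and depends on the prior count. Genes in the mesoderm direction were Tet2 (-1.16), Id4 (-1.75), Spry4 (-1.92), Peg10 (-2.37), Nrp2 (-2.37), Ttn (-2.41), Id2 (-2.71), Coch (-2.80), Bmp4 (-3.22), 2210409E12Rik (-3.49), Id3 (-4.30) and Id1 (-6.55). Dkk1 (2.80, adjusted p = 0.00745) and Irs4 (3.45, adjusted p = 0.00221) lost their call without the second undifferentiated mesoderm library. Coch lost it without the second endoderm 48 h (-2.58, adjusted p = 0.0019), second undifferentiated endoderm (-2.70, adjusted p = 0.00146) or first undifferentiated mesoderm library (-2.52, adjusted p = 0.0018). Trim67 (4.69 to 4.89), A730049H05Rik (3.37 to 3.68), Fgf15 (2.38 to 3.31), 2210409E12Rik (-2.76 to -3.63) and Id4 (-1.58 to -1.69) each lost their call without any of several libraries.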

How the results depend on the processing

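Of the counts of 1149 genes higher and 571 lower at 48 h, all stayed within 1.5 times under DESeq2 (1026 and 572), RLE scaling (1117 and 590), upper quartile scaling (903 and 730), no filter on low counts (1261 and 820), a filter at 1 CPM (1110 and 587), limma-voom (1134 and 565) and fits of the 8 Mtf2 null libraries (955 and 505) or the 4 compared (902 and 527). An adjusted p under 0.05 with no limit on the fold gave 4227 and 2782, and a limit of 2 on the log2 scale 355 and 179. The same 2 limits gave 2171 and 2072, and 205 and 128, for the difference from WT, 2456 and 1988, and 241 and 113, for that from Jarid2 null cells, and 276 and 176, and 31 and 15, for that between the media. With no filter on low counts the genes lower were 835 against WT and 648 against Jarid2 null cells, and the media differed for 173 and 99. Leaving out each library in turn gave 746 to 1069 genes higher and 382 to 465 lower in the main comparison, 314 to 568 and 316 to 567 for the difference from WT, 354 to 613 and 246 to 387 for that from Jarid2 null cells, and 47 to 61 and 23 to 34 for that between the media. Members called lower numbered 1 (DESeq2 and RLE scaling) and 3 (upper quartile scaling) in the general pluripotency list, 1 (RLE and upper quartile scaling) in the extraembryonic endoderm list, and, under upper quartile scaling, 1 in the definitive endoderm list, 1 in the mesoderm list, 2 in the Wnt list and 2 in the DNA methylation list. Members called higher were 1 in the trophoblast list (DESeq2 and upper quartile scaling) and 3 in the Wnt list (upper quartile scaling). Medians turned under upper quartile scaling in the BMP (-0.04) and epithelial-mesenchymal (-0.07) lists. The cause of these shifts was not tested. With each library left out, 9 naive genes fell, 8 to 9 formative, 9 to 11 definitive endoderm, 11 to 13 extraembryonic endoderm and 18 to 19 cholesterol genes rose. A replicate block gave 1154 and 579 in the main comparison, 530 and 508 against WT, 632 and 425 against Jarid2 null cells and 82 and 44 between the media. Over all 66 pairs of libraries of different groups in the endoderm series with the same number, correlations of deviations ran from -0.157 to 0.201. Such correlations cannot settle whether libraries with the same number shared a culture or a day. Of the genes named, 26 of 134 called in the main comparison, 30 of 77 called against WT and 9 of 28 called between the media lost a call without some library. Depth limits values at low levels, such as that of Stra8, which rests on 3 counts at 48 h.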

Other observations

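Of 14 genes of CDK inhibitors, cyclins and p53 targets, 4 rose and 1 fell, with a median log2 fold change of 0.56, beside 5.97% and 2.96% of all genes tested. Cdkn1a, which encodes the CDK inhibitor p21, was at 25.9 and 30.1 CPM before differentiation, 35.1 and 32.9 CPM at 5 h, 100.3 and 84.6 CPM at 24 h and 101 and 85.45 CPM at 48 h (1.74 ± 0.16 SE, adjusted p = 3.14e-08 by edgeR), so that its rise fell between 5 and 24 h. Cdkn2a, a locus known as a Polycomb target, rose from 1.92 and 2.49 CPM to 9.80 and 9.07 CPM (2.09), and its neighbor Cdkn2b from 0.669 and 1.20 CPM to 4.94 and 4.61 CPM (2.34). The call of Cdkn2b was lost without the first undifferentiated library (1.98, adjusted p = 0.00327). The cyclin gene Ccnd3 fell from 164 and 174 CPM to 82.4 and 71.4 CPM (-1.14). Ccnd2 was 1.01 higher and lost its call without the first 48 h library (0.93, adjusted p = 0.00226) or the first undifferentiated library (0.88, adjusted p = 0.0047). The p53 targets Mdm2 (0.64), Ccng1 (0.72), Sesn2 (0.335) and Trp53inp1 (0.45) were not called.

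Of 13 tested germline genes, 4 fell and 1 rose, with a median of -0.79, beside 2.96% and 5.97% of all genes tested. Stra8, the gate to meiosis, fell from 3.35 and 5.49 CPM to 0.15 and 0.0698 CPM, a ratio of 40.6 of the level before over that at 48 h (exact 95% interval 13.5 to 200.3, from 3 counts at 48 h). Mael, of the piRNA pathway, was at 10.0 and 13.5 CPM and then 4.94 and 4.75 CPM (-1.28), a call lost without the second undifferentiated library (-1.05, adjusted p = 0.00185). Tex15 was 1.09 lower on the log2 scale and lost its call without the second 48 h library (-0.99) or the first undifferentiated library (-0.96), and Sycp3 (-1.35) lost it without any of the 4, at -1.31 to -1.39. The riser was Dppa3, which the naive list also holds.

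Of 20 glycolysis genes, 3 fell and 1 rose, with a median of -0.08, beside 2.96% and 5.97% of all genes tested. The 2 lactate dehydrogenase subunits moved apart, with Ldha down from 319 and 338 CPM to 128 and 136.9 CPM (-1.31 ± 0.11, adjusted p = 6.17e-09 by edgeR) and Ldhb up from 28.0 and 31.9 CPM to 141.6 and 116 CPM (2.10 ± 0.19, adjusted p = 1.77e-08). In neither gene did the 48 h libraries overlap those before differentiation. Pdk1, which holds pyruvate back from the mitochondria, fell from 246 and 249 CPM to 81.25 and 83.8 CPM (-1.59), whereas in WT cells it stood at 214.6 and 202.6 CPM and then 234 and 211.6 CPM (difference -1.68, adjusted p = 1.55e-08). Pfkp was 1.12 lower on the log2 scale, a call lost without the second 48 h library (-0.91).

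A count of CpG dinucleotides in RefSeq promoters, chosen after the values were seen, had a median of 22 per 300-base window over 865 genes that rose, 17 over 359 that fell and 21 over 12216 genes tested. A gene with several promoters was taken at its highest count, unlike the windows printed above, which use the outermost start. It is given as a description, with no test.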
